A study of Mus musculus with 9 samples.

Results

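The NRF2 antioxidant response genes are 10 listed mouse genes: *Nfe2l2*, *Keap1*, *Slc7a11*, *Gclc*, *Gclm*, *Gsr*, *Txnrd1*, *Srxn1*, *Prdx1* and *Nqo1*. They were taken by name from the 53801 genes of the count tables, and all 10 symbols matched an Ensembl identifier and passed the filter on low counts in every comparison. RNA was sequenced from monocytes/macrophages of male C57BL/6J mice aged 9 weeks, sorted as CD11c-Ly6G-CD11b+CD45high cells. Stroke brain and stroke blood came from mice with a permanent distal middle cerebral artery occlusion (dMCAO) together with ligation of the left common carotid artery, and were taken 5 days after surgery. Sham blood came from sham-operated mice, for which the text of the study names no day. There were 3 libraries per group, with cells pooled from 5 mice in each brain library and cells of 1 mouse in each blood library. The comparisons ask how the transcripts of this response differ between cells in the injured brain and cells in the circulation, and whether stroke alters them in blood.

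NRF2, the product of *Nfe2l2*, is a transcription factor that KEAP1 holds in the cytoplasm and marks for degradation in resting cells. Oxidants and electrophiles modify KEAP1, NRF2 then enters the nucleus, pairs with a small MAF protein and activates genes through antioxidant response elements. Its targets make glutathione, recycle thioredoxin and peroxiredoxins, and detoxify quinones, and in macrophages it is known for protection against the oxidants that these cells produce and take up. NRF2 is regulated mainly as a protein, so transcript levels of *Nfe2l2* and *Keap1* do not measure its activity.

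Total counts were between 18475118 and 22623578 per library, where 3 counts, taken as the limit of detection, correspond to 0.133 to 0.162 counts per 1000000 counts of a library (CPM). Gene positions are those of the count tables, on GRCm38, with starts counted from 1. Levels are CPM after TMM normalisation over the 9 libraries, except where a level per kilobase of exon is named. All 9 monocyte and macrophage markers were detected in every library. Their sums were 43020 to 49490 CPM in the brain, 104700 to 111800 CPM in stroke blood and 91550 to 128300 CPM in sham blood. Most of each sum was *Lyz2*, with 35380 to 40320 CPM in the brain, 94570 to 100500 CPM in stroke blood and 81250 to 118200 CPM in sham blood. Of these 9 markers, 6 were lower in every brain library than in every stroke blood library, and 1 was higher. Of the 7 erythroid transcripts found in the table, all were detected in every blood library, with a summed level of 1250 CPM in sham blood 1, of 31080 to 33860 CPM in the other two sham libraries and of 14100 to 20460 CPM in stroke blood, against 3.80 to 13.7 CPM in the brain. Platelet transcripts, 6 in all, had the same low library, with 17.6 CPM in sham blood 1, 320.2 to 634.2 CPM in the other 5 blood libraries and 33.8 to 78.1 CPM in the brain. The 8 microglial markers were all higher in every brain library than in every blood library, with sums of 1188 CPM in brain 1, 1877 CPM in brain 2 and 3493 CPM in brain 3 against 149.4 to 209.1 CPM in blood. The 9 neutrophil markers summed to between 822.6 and 1347 CPM in the brain, 466.5 and 790.1 CPM in stroke blood and 742.9 and 3026 CPM in sham blood, and *Mpo*, a granule gene of neutrophil precursors, reached 144.6 CPM in brain 1 against 42.2 and 17.8 CPM in the other brain pools and at most 1.61 CPM in blood. In the brain, border-associated macrophage markers summed to 123.9 to 297.3 CPM and dendritic cell markers to 606.8 to 763.8 CPM, against 31.0 to 60.8 CPM and 85.2 to 343.3 CPM in blood. T, NK and B cell markers summed to 70.8 to 270 CPM, endothelial markers to 33.2 to 59.2 CPM and oligodendrocyte markers to 126.5 to 332.1 CPM over the 9 libraries, with overlap between brain and blood for each. Of the defining microglial genes, *Sall1* was at 0 in all blood libraries. Neuronal markers stayed at or below 0.349 CPM in sum and astrocyte markers at or below 6.68 CPM. In sorted bulk samples, a change in the share of a cell type and a change in RNA per cell cannot be told apart.

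The promoters of the members were searched for the core of the antioxidant response element, since several members rose together in the brain. RefSeq windows on GRCm38.p6, from 250 bases before to 50 bases after a start site, were at hand for 8 of the 10 members, in 10 windows. The letters TGACNNNGC, read on both strands, were in 12.4% of the 32851 windows of all genes and in 5 of the 10 member windows. These were windows of 5 members, namely *Nfe2l2*, *Srxn1*, *Gclm*, *Prdx1* and *Txnrd1*. The shorter requirement TGANNNNGC, which contains every match of the first, was in 41.3% of all windows and in 8 of the 10 member windows, from 7 members. The members were listed as genes of this response, so matches above the share of all windows are no independent result. The 4 stretches below show the match that lies upstream of the start site for *Gclm*, *Prdx1* and *Txnrd1* and, under the shorter requirement, the upstream match nearest to the start site of *Srxn1*, each read along the strand of its gene with the match in capitals.
Gclm: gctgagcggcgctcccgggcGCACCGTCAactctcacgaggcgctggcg
Prdx1: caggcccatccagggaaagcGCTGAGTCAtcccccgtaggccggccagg
Txnrd1: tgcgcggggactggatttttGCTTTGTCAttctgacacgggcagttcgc
Srxn1: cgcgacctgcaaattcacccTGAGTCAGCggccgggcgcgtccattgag
The *Gclm* stretch is chr3:122245403-122245451, with its match starting 134 bases before the start site. The *Prdx1* stretch is chr4:116685446-116685494 and its match starts 133 bases before the start site. The *Txnrd1* stretch is chr10:82859094-82859142, before one of the 3 start sites listed for this gene, and its match starts at 92 bases. The *Srxn1* stretch is chr2:152105459-152105507 and its match starts at 45 bases. All 4 lie on the plus strand and outside annotated exons. The first 3 matches are on the strand opposite to the gene, so the capitals show its reverse complement. Of these 4 genes, *Txnrd1* and *Srxn1* were upregulated in the brain and *Gclm* and *Prdx1* did not pass the test, and a match describes letters in a window, not a site that is bound.

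Per kilobase of exon, the order of the members was similar in the 3 groups at its upper end and changed in the middle. *Prdx1*, a peroxiredoxin that reduces hydrogen peroxide, and *Gsr*, which reduces oxidised glutathione, had the highest levels, with 321 ± 43.2 and 295.1 ± 23.6 CPM per kilobase in stroke blood (mean ± SD, n = 3), where their ranges overlapped. In the brain they were at 348.9 ± 56.3 and 224.1 ± 13.2 CPM per kilobase with no overlap. *Nfe2l2* came next in every group, at 62.3 ± 5.49 CPM per kilobase in stroke blood and 105.9 ± 20.1 in the brain, and its range was clear of its neighbours. In stroke blood *Keap1* followed at 11.9 ± 1.68 CPM per kilobase, above *Srxn1* (4.99 ± 1.82), *Txnrd1* (4.77 ± 1.09) and *Gclm* (4.05 ± 1.36), whose neighbouring ranges overlapped. In the brain *Srxn1* (20.8 ± 12.5) and *Txnrd1* (13.5 ± 2.94) stood above *Keap1* (9.50 ± 0.717) and *Gclc* (8.99 ± 0.491 CPM per kilobase). The ranges of *Srxn1* and *Txnrd1* overlapped, as did those of *Keap1* and *Gclc*, and those of *Txnrd1* and *Keap1* did not. *Slc7a11* and *Nqo1* had the lowest means in all 3 groups, at 1.46 ± 0.0886 and 0.734 ± 0.201 CPM per kilobase in the brain. In stroke blood and in sham blood the range of *Slc7a11* overlapped that of *Gclc*, the next higher member, and that of *Nqo1*.

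**Figure D1:**
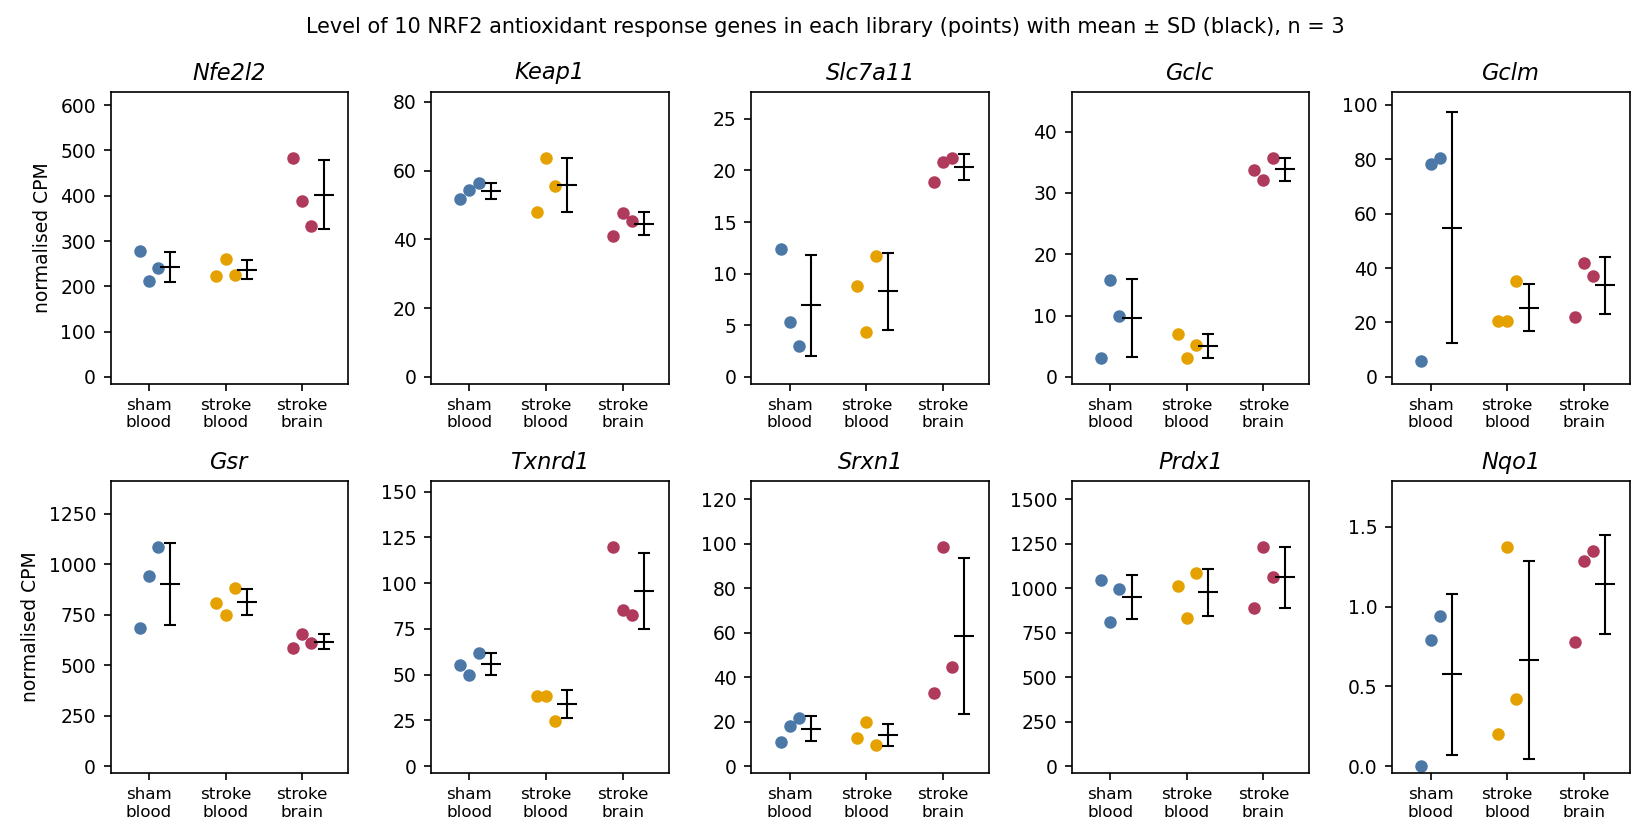
Normalised CPM (vertical axes, linear, each panel on its own scale) of the 10 genes in the 3 sham blood, 3 stroke blood and 3 stroke brain libraries (points), with the mean ± SD of each group in black. *Gclc* lay between 32.0 and 35.7 CPM in the brain and at or below 15.8 CPM in blood, while *Gclm* in sham blood ran from 5.72 to 80.5 CPM.

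*Nfe2l2* (ENSMUSG00000015839, chr2:75675513-75704641, minus strand) was at 483.8, 388.8 and 333.1 CPM in brain 1, 2 and 3, at 223.9, 260.4 and 224.8 CPM in stroke blood and at 277.2, 210.8 and 240.3 CPM in sham blood. Every brain library was above every blood library, and brain 1, with the lowest sum of microglial markers, was the highest. The difference was 0.80 ± 0.18 (log2 fold change ± SE) against stroke blood and 0.72 ± 0.18 against sham blood (edgeR's quasi-likelihood test, Benjamini-Hochberg adjusted p = 0.00929 and 0.0287), which passed the adjusted p but not the fold change threshold of a DEG. *Keap1*, the gene of its inhibitor (ENSMUSG00000003308, chr9:21229730-21239361, minus strand), was at 40.9, 47.5 and 45.3 CPM in the brain, at 47.9, 63.7 and 55.6 CPM in stroke blood and at 51.8, 54.2 and 56.3 CPM in sham blood. The brain libraries were the 3 lowest, but the differences of -0.29 ± 0.18 and -0.28 ± 0.14 did not pass the test (edgeR adjusted p = 0.242 and 0.194). The exons of *Keap1* share 510 bases with the antisense gene *Gm16754*, which had 0 to 5 counts per library.

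Of the glutathione genes, *Slc7a11* (ENSMUSG00000027737, chr3:49892526-50443614, minus strand) encodes the cystine/glutamate exchanger that brings in the cystine for glutathione synthesis. Its level was 18.9, 20.8 and 21.2 CPM in the brain, 8.76, 4.36 and 11.7 CPM in stroke blood and 12.4, 5.31 and 3.04 CPM in sham blood. The brain libraries lay close together and above all blood libraries, which varied 2.69-fold among stroke blood and 4.08-fold among sham blood. *Slc7a11* was upregulated 2.53-fold against stroke blood (log2 fold change 1.34 ± 0.33, edgeR adjusted p = 0.014). This call was lost without stroke blood 1 (adjusted p = 0.0544), without stroke blood 2 (log2 fold change 0.99) and with all 9 libraries in a single fit (adjusted p = 0.0578). The annotated exons of *Slc7a11* hold a stretch of 373 bases with at least 95% identity to alpha-tubulin genes such as *Tuba1a*, so reads on that stretch are uncertain.

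*Gclc* (ENSMUSG00000032350, chr9:77754535-77794485, plus strand) encodes the catalytic subunit of glutamate-cysteine ligase, the first and limiting step of glutathione synthesis, and *Gclm* (ENSMUSG00000028124, chr3:122245557-122270732, plus strand) encodes its modifier subunit. *Gclc* was at 33.8, 32.0 and 35.7 CPM in the brain, at 7.03, 3.08 and 5.14 CPM in stroke blood and at 3.08, 15.8 and 9.95 CPM in sham blood. The groups of brain and blood were well apart, and *Gclc* had the largest log2 fold change of the 10 members against stroke blood, 2.77 ± 0.30 or 6.83-fold (edgeR adjusted p = 0.000244). It was called in all 14 alternative settings of that comparison, between 2.47 and 3.05. *Gclm* did not follow this pattern, with 21.9, 41.9 and 37.1 CPM in the brain, 20.5, 20.6 and 35.4 CPM in stroke blood and 5.72, 78.4 and 80.5 CPM in sham blood. Its brain and stroke blood values overlapped (log2 fold change 0.44 ± 0.29, edgeR adjusted p = 0.29), and sham blood held both the lowest and the 2 highest libraries. Exons of *Gclm* overlap those of *Gm17494* on the other strand and of the pseudogene *Gm6061* on the same strand by 296 and 244 bases. A stretch of 287 bases also has 97.9% identity to *Ppia*, which had 12679 to 18010 counts per library, so the *Gclm* counts carry that uncertainty.

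*Gsr* (ENSMUSG00000031584, chr8:33652523-33698163, plus strand), the gene of glutathione reductase, was at 584.6, 656.5 and 610.2 CPM in the brain, at 807.2, 750.6 and 880.3 CPM in stroke blood and at 682.6, 941.2 and 1085 CPM in sham blood. All brain libraries were below all blood libraries. The log2 fold change was -0.36 ± 0.14 against stroke blood and -0.55 ± 0.18 against sham blood, and neither passed the test (edgeR adjusted p = 0.074 and 0.0716).

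In the thioredoxin group, *Txnrd1* (ENSMUSG00000020250, chr10:82833951-82897712, plus strand) encodes the cytosolic thioredoxin reductase. It was at 119.8, 85.1 and 82.5 CPM in the brain, at 38.3, 38.3 and 24.9 CPM in stroke blood and at 55.3, 49.8 and 62.0 CPM in sham blood. The 3 groups did not overlap, with sham blood between stroke blood and brain. *Txnrd1* was upregulated 2.89-fold in the brain against stroke blood (log2 fold change 1.53 ± 0.24, edgeR adjusted p = 0.00158), in all 14 alternative settings. *Srxn1* (ENSMUSG00000032802, chr2:152105516-152111376, plus strand), the gene of the sulfiredoxin that restores overoxidised peroxiredoxins, was at 32.7, 98.6 and 44.5 CPM in the brain, at 12.8, 19.7 and 9.69 CPM in stroke blood and at 10.7, 18.1 and 21.7 CPM in sham blood. Brain 2 was 3.01-fold above brain 1, and even brain 1 was above all blood libraries. *Srxn1* was upregulated 4.23-fold against stroke blood (log2 fold change 2.08 ± 0.43, edgeR adjusted p = 0.00595), with 1.49 to 2.38 on the log2 scale when 1 library was left out.

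*Prdx1* (ENSMUSG00000028691, chr4:116685544-116700822, plus strand) was at 889.7, 1232 and 1063 CPM in the brain, at 1014, 831.1 and 1086 CPM in stroke blood and at 1044, 810.9 and 995.4 CPM in sham blood. The groups overlapped throughout, and the log2 fold change between brain and stroke blood was 0.15 ± 0.17 (edgeR adjusted p = 0.524). *Prdx1* shares 597 bases at over 95% identity with *Gm21399* and *Gm7204*, which had at most 41 counts. *Nqo1* (ENSMUSG00000003849, chr8:107388225-107403206, minus strand), the gene of the quinone reductase often used as a readout of NRF2, was close to the limit of detection. It had 16, 31 and 31 counts in the brain, 4, 29 and 7 in stroke blood and 0, 17 and 17 in sham blood, which is at most 1.37 CPM. The count of 0 in sham blood 1 allows a level of up to 0.146 CPM, and the difference of 0.78 ± 0.73 between brain and stroke blood was not detectable at this depth (edgeR adjusted p = 0.453).

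Counted over the list, 4 of the 10 members were DEGs between brain and stroke blood (absolute log2 fold change above 1 and adjusted p below 0.05), and all 4 were upregulated in the brain. Of the 13189 genes tested, 21.0% were DEGs, 13.1% upregulated and 7.86% downregulated. At the adjusted p alone 5 members passed, *Nfe2l2* being the fifth, against 30.6% of all genes. The groups did not overlap for 7 members, against 48.2% of all genes. The median log2 fold change of the members was 0.79, and that of all genes tested was 0.06. The plot of log2 fold changes shows the 3 comparisons side by side. Both brain comparisons use the same 3 brain libraries and both sham comparisons the same 3 sham libraries, so their values are not independent.

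**Figure D2:**
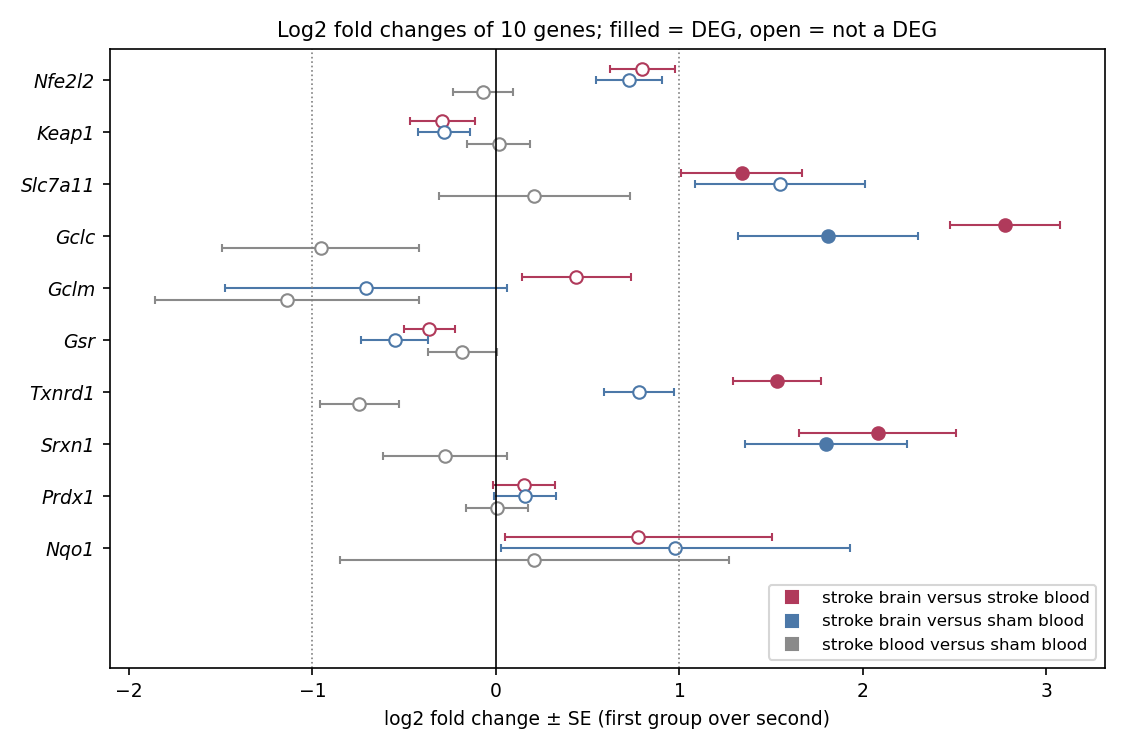
Log2 fold change ± SE (horizontal axis) of the 10 genes in 3 comparisons (colours), with filled points for DEGs, open points for genes that were not, and dotted lines at the threshold of 1. *Gclc* and *Srxn1* are filled in both brain comparisons, *Txnrd1* (1.53) and *Slc7a11* (1.34) are filled against stroke blood, and no point is filled between the 2 blood groups.

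Against sham blood, 2 members were upregulated DEGs in the brain, *Gclc* (log2 fold change 1.81 ± 0.49, 3.51-fold, edgeR adjusted p = 0.0379) and *Srxn1* (1.80 ± 0.44, 3.48-fold, edgeR adjusted p = 0.0266). Among the 13020 genes tested, 13.4% were DEGs, 9.75% upregulated and 3.67% downregulated. *Txnrd1* passed the adjusted p at 0.78 ± 0.19 (edgeR adjusted p = 0.0255), as did *Nfe2l2*, so that 4 members passed it against 19.8% of all genes. At an unadjusted p below 0.05 there were 6 members with edgeR, against 34.3% of all genes. When each library was left out in turn, *Txnrd1* and *Nfe2l2* each passed in 2 of 6 fits, with an edgeR adjusted p of up to 0.0966 and 0.108, and without sham blood 3 or brain 2 no member passed. The libraries did not overlap for 7 members, against 41.2% of all genes. *Slc7a11* had a log2 fold change of 1.55 ± 0.46 and missed the threshold (edgeR adjusted p = 0.0519). *Gclm* was at -0.71 ± 0.77 (edgeR adjusted p = 0.553). These calls rested on single libraries. Without sham blood 1 the called members were *Gclc*, *Gclm* (-1.24, downregulated) and *Slc7a11* (2.28), and *Srxn1* was lost. Without sham blood 2 only *Gclc* was called, without brain 1 or brain 3 only *Srxn1*, and without sham blood 3 or brain 2 none was, although 6 members had an unadjusted p below 0.05 in either of these fits (edgeR), against 28.9% of all genes in each. With DESeq2 on all libraries the called members were *Gclc*, *Srxn1* and *Slc7a11*.

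Between stroke blood and sham blood no member was a DEG with edgeR or with DESeq2, and at an unadjusted p below 0.05 there was 1 with edgeR and 2 with DESeq2 (13.7% of all genes with DESeq2). Of the 12664 genes tested with edgeR, 0.0079% were DEGs, which is 1 gene. The 1 member with an unadjusted edgeR p below 0.05, a value that 12.5% of all genes reached, was *Txnrd1*, and it was also the 1 member whose groups did not overlap, against 18.1%. *Txnrd1* had 0.596 times its sham level in stroke blood, a log2 fold change of -0.75 ± 0.22. The edgeR adjusted p of 0.294 failed the threshold. *Gclc* and *Gclm* had lower means in stroke blood by -0.96 ± 0.54 and -1.14 ± 0.72 (edgeR adjusted p = 0.485 and 0.531), which was within the spread between sham libraries. *Nfe2l2*, *Keap1* and *Prdx1* differed by -0.07, 0.01 and 0.01, and the sign of each changed with the setting.

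Within blood, *Gclm*, *Gsr* and *Gclc* were ordered much like the erythroid transcripts. Of the 15 pairs that the 6 blood libraries form, *Gsr* had the same order as the summed erythroid level in 14, and *Gclm* and *Gclc* in 13. The other members had it in 10 pairs (*Nqo1*), 9 (*Srxn1*), 8 (*Keap1* and *Txnrd1*), 5 (*Prdx1* and *Slc7a11*) and 3 (*Nfe2l2*). The platelet sum had the same order as *Gclm* in 14 pairs, *Gsr* and *Nqo1* in 13, *Srxn1* in 12, *Keap1* in 11, *Gclc* in 10, *Txnrd1* in 9, *Nfe2l2* in 6, *Prdx1* in 4 and *Slc7a11* in 2. The low library was sham blood 1, where *Gclm* was at 5.72 CPM and the beta-globin gene *Hbb-bs* at 542.1 CPM, against 78.4 and 80.5 CPM of *Gclm* and 15260 and 15860 CPM of *Hbb-bs* in the other sham libraries. Brain libraries, with at most 4.58 CPM of *Hbb-bs*, had 21.9 to 41.9 CPM of *Gclm* and the highest *Gclc*. How many of all genes have such an order was not counted, so it is not shown to be particular to these genes. The part of erythroid RNA in the blood levels of these genes was not tested.

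**Figure D3:**
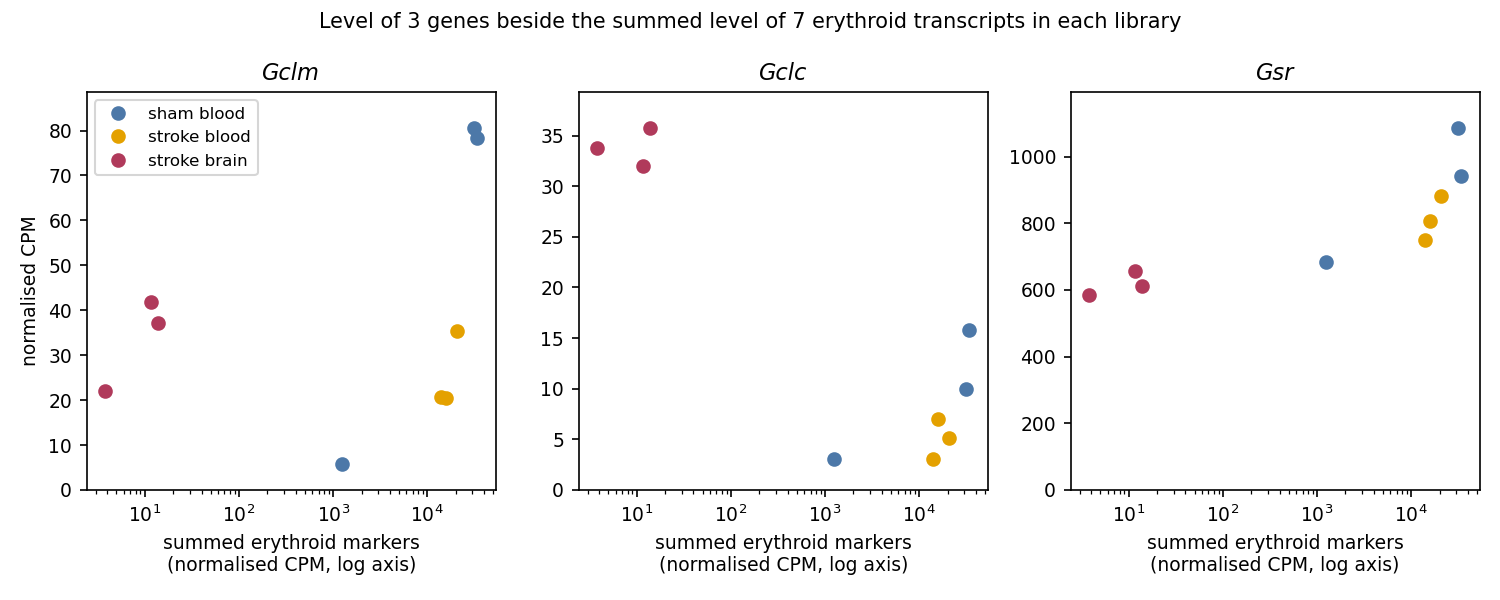
Normalised CPM of *Gclm*, *Gclc* and *Gsr* (vertical axes, linear) against the summed CPM of 7 erythroid transcripts (horizontal axes, log scale) in each library, coloured by group. Among the blood libraries the lowest erythroid sum, 1250 CPM in sham blood 1, goes with the lowest *Gclm* (5.72 CPM) and the lowest *Gsr* (682.6 CPM), while the brain libraries lie at 3.80 to 13.7 CPM of erythroid transcripts.

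Other markers differed between brain and blood or among the brain libraries as well. The sum of microglial markers was lowest in brain 1, where *Nfe2l2* and *Txnrd1* were highest, and highest in brain 3, where *Slc7a11* and *Gclc* were highest by a small margin. Dendritic cell markers summed to 763.8, 618.1 and 606.8 CPM in brain 1, 2 and 3. The sum of the 9 neutrophil markers was 1288, 822.6 and 1347 CPM in brain 1, 2 and 3. Within that list *Mpo*, *Elane*, *S100a8*, *S100a9* and *Camp* were highest in brain 1 (144.6, 148.6, 233.2, 189.7 and 76.5 CPM). *Ngp*, *Retnlg*, *Mmp8* and *Ly6g* were highest in brain 3 (309.3, 504.6, 145.2 and 0.61 CPM). *Mmp8* was lower in every brain library than in every blood library, where it was at 417.8 to 1301 CPM. Border-associated macrophage markers summed to 123.9, 237.6 and 297.3 CPM in brain 1, 2 and 3. *Srxn1* was at 32.7, 98.6 and 44.5 CPM in these libraries, each above all blood libraries. The part of microglia, of border-associated macrophages, of dendritic cells or of neutrophils and their precursors in the differences between brain and blood was not tested.

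Ratios within a library do not depend on its depth or scaling. The log2 ratio of *Nfe2l2* to *Keap1* counts was 3.56, 3.03 and 2.88 in the brain, 2.22, 2.03 and 2.02 in stroke blood and 2.42, 1.96 and 2.09 in sham blood. Brain and blood did not overlap, and the means differed by 1.07 against stroke blood and 1.00 against sham blood (exact permutation test, two-sided, p = 0.1 for both, the smallest that 3 against 3 libraries allow). The log2 ratio of *Gclc* to *Gclm* counts was 0.62, -0.39 and -0.06 in the brain, -1.55, -2.74 and -2.78 in stroke blood and -0.89, -2.31 and -3.02 in sham blood. The catalytic subunit was thus counted about as often as the modifier subunit in the brain, and less often in all 6 blood libraries. The means differed by 2.42 from stroke blood and 2.13 from sham blood (exact permutation test, two-sided, p = 0.1 for both, again the smallest possible). Neither ratio differed beyond the spread between the blood groups (exact p = 0.7 for each). The erythroid values given above for *Gclm* and *Gclc* bear on the blood ratios too.

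**Figure D4:**
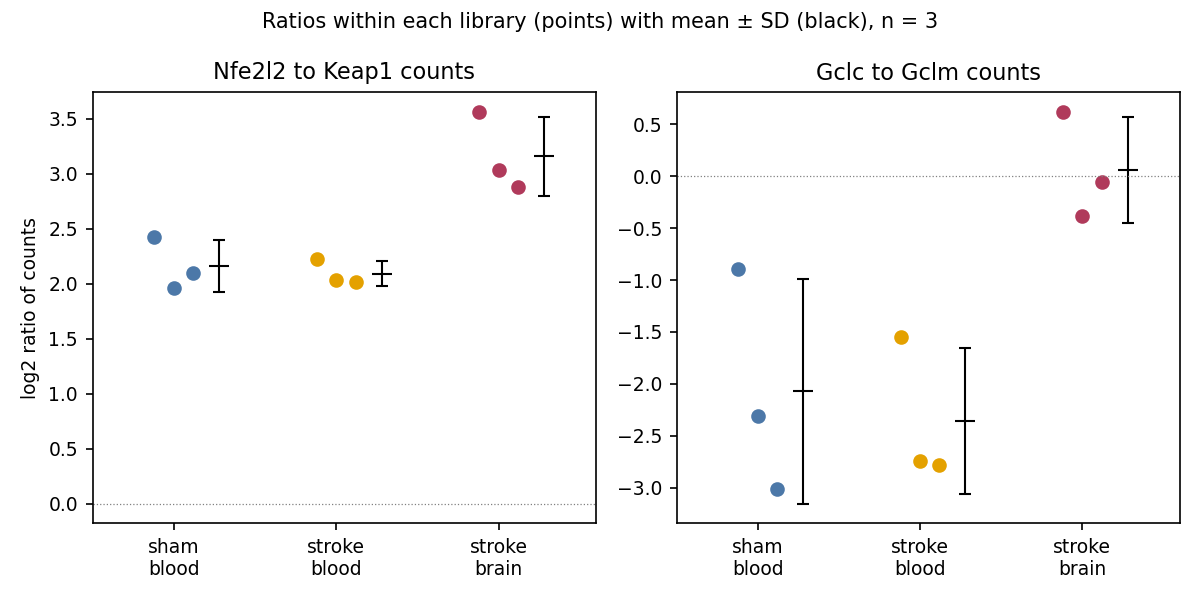
Log2 ratio of counts within each library (points, vertical axis) for *Nfe2l2* to *Keap1* and for *Gclc* to *Gclm*, by group, with mean ± SD in black and a dotted line at equal counts. The 3 brain libraries lie above all blood libraries in both panels, from 2.88 to 3.56 and from -0.39 to 0.62.

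The wider pathway was described with a list of 63 further genes in 6 roles, of which 59 passed the filter in the comparison of brain with stroke blood. In this list 10 genes were upregulated DEGs in the brain and 6 downregulated ones, where 13.1% and 7.86% of all genes were, so both counts lay near those shares. At the adjusted p alone, 15 genes of the list were higher and 21 lower in the brain, against 30.6% of all genes in either direction. The median log2 fold change of the list was -0.44, and that of all genes 0.06. Roles differed in direction. Of the 12 regulators and partners tested, 5 were upregulated and none downregulated. *Maff*, a small MAF partner of NRF2, was the largest rise, with 129, 78 and 54 counts in the brain against 23, 15 and 13 in stroke blood and 16, 6 and 3 in sham blood (log2 fold change 2.19 ± 0.53, edgeR adjusted p = 0.0129). Chosen after their values were seen, the 4 further ones were the small MAF gene *Mafk* (1.27), the repressor *Bach2* (2.11), the kinase *Gsk3b* (1.52) and *Sqstm1* (1.02), whose product p62 binds KEAP1. Against sham blood *Maff*, *Bach2* and *Sqstm1* were DEGs as well, and *Mafk* (0.88) and *Gsk3b* (0.77) were not. *Sqstm1* shares 580 exon bases with *Mrnip* on the other strand, *Bach2* 537 with *Bach2os* and *Mafk* 169 with *Tmem184a*.

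Of the 16 genes of glutathione synthesis and use tested, 1 was upregulated and 3 were downregulated, against 13.1% and 7.86% of all genes. *Slc3a2*, the heavy chain that carries the *Slc7a11* product to the membrane, was at 338.8, 356.5 and 323.7 CPM in the brain against 58.3, 70.1 and 75.5 CPM in stroke blood and 67.0, 66.5 and 79.8 CPM in sham blood (5.12-fold, log2 fold change 2.35 ± 0.16, edgeR adjusted p = 2.32e-05). It pairs with other amino acid transporters as well. *Mgst1*, a microsomal glutathione transferase, fell from 1164, 719.3 and 1120 CPM in stroke blood to 185, 200.4 and 184.1 CPM in the brain (log2 fold change -2.36 ± 0.20, edgeR adjusted p = 5.75e-05). Among the genes that fell were also the glutathione peroxidase gene *Gpx1* (-1.50) and the transferase gene *Gstm1* (-1.17), named after their values were seen.

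In the thioredoxin and peroxiredoxin list, 2 of 10 were downregulated and none upregulated, against 7.86% and 13.1% of all genes. At the adjusted p alone, 7 were lower and 1 higher in the brain, against 30.6% of all genes in either direction. *Txnip*, which encodes an inhibitor of thioredoxin, was at 40.9, 74.6 and 85.5 CPM in the brain against 215.8, 311.1 and 270.8 CPM in stroke blood (log2 fold change -1.96 ± 0.27, edgeR adjusted p = 0.000877). It shares 606 exon bases with the antisense gene *Gm15441*. The other DEG was *Prdx2* (-1.06), named after its values were seen, which shares bases with *Junb* and *Rnaseh2a* and is abundant in red blood cells. Against sham blood *Txnip* was a DEG as well, and *Prdx2* (-0.88) was not. Of the 6 genes of NADPH supply, 5 had lower means in the brain and passed the adjusted p, which 30.6% of all genes did in either direction, and 1 of the 5 was a DEG, the pentose phosphate dehydrogenase gene *Pgd*, with 222.1, 199.1 and 194.4 CPM in the brain against 524.5, 489.3 and 492.7 CPM in stroke blood (log2 fold change -1.26 ± 0.14, edgeR adjusted p = 0.00029). *Me1*, the cytosolic malic enzyme, was the exception. It had 15, 17 and 16 counts in the brain and none in stroke blood (edgeR adjusted p = 0.00376), so it was at least 4.50-fold higher with 3 counts assumed in each stroke blood library, and sham blood had 5, 8 and 0 counts.

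Of the 12 heme, iron and detoxification targets tested, 3 were upregulated and none downregulated, against 13.1% and 7.86% of all genes. *Ephx1*, an epoxide hydrolase, was the largest rise, with 4.88, 4.94 and 8.85 CPM in the brain against 2.45, 3.08 and 1.97 CPM in stroke blood (log2 fold change 1.34 ± 0.40, edgeR adjusted p = 0.0313), and it shares 72 exon bases with a pseudogene. Sham blood, at 4.085 ± 1.22 CPM of *Ephx1* (mean ± SD), overlapped with the brain (log2 fold change 0.60 ± 0.37, edgeR adjusted p = 0.293). Also upregulated against stroke blood, and named after their values were seen, were the ferritin heavy chain gene *Fth1* (1.21) and *Osgin1* (1.06). Against sham blood *Fth1* was a DEG as well, and *Osgin1* (0.97) was not. *Hmox1*, the heme oxygenase gene that NRF2 and BACH1 both control, was at 143, 195.2 and 197.9 CPM in the brain and at 156.9, 142.9 and 173 CPM in stroke blood, with overlapping groups (log2 fold change 0.22 ± 0.17, edgeR adjusted p = 0.36). None of the 3 other antioxidant enzymes tested was a DEG. Against sham blood the wider list had 5 upregulated and 8 downregulated DEGs of 59, and between the blood groups it had none of 58 with edgeR or with DESeq2. The shares of all genes against sham blood were 9.75% and 3.67%. Between the blood groups 7 of the 58 had an unadjusted edgeR p below 0.05, a share near the 12.5% of all genes.

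**Figure D5:**
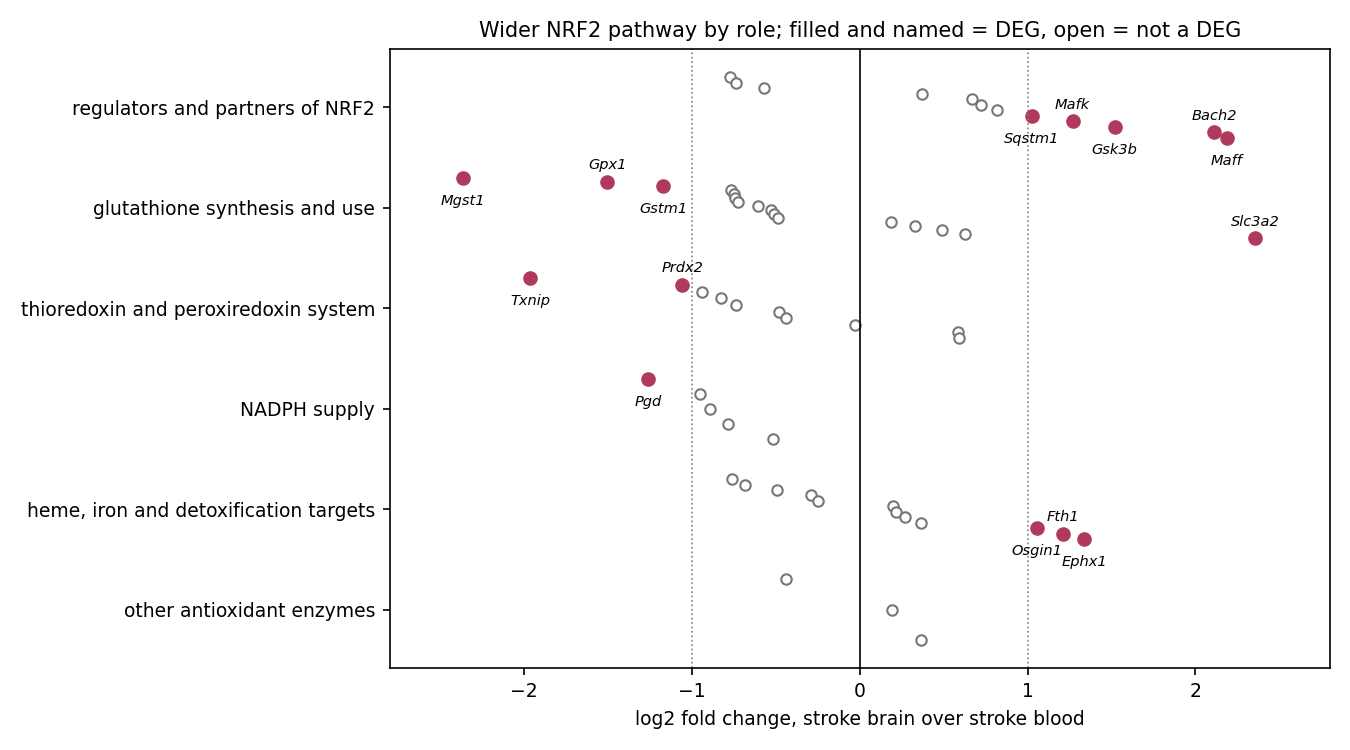
Log2 fold change of brain over stroke blood (horizontal axis) for the genes of the wider pathway list that passed the filter, in rows by role, with DEGs filled and named, other genes open, and dotted lines at the threshold of 1. *Me1*, at 0 counts in stroke blood, is not drawn. The regulators hold 5 filled points to the right and the glutathione row 3 to the left, with *Slc3a2* at 2.35 to the right.

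Genes with a profile most like that of a member were ranked by the root-mean-square difference of mean-centred log2 CPM over the 9 libraries, among 7903 genes with a mean log2 CPM above 3. Nearest to *Nfe2l2* were *Litaf* (0.127), *Sf3b1* (0.128), *Lrrc57* (0.137), *G3bp1* (0.14) and *Itprid2* (0.141). *Litaf* was at 416.1 CPM in sham blood, 423.4 CPM in stroke blood and 769 CPM in the brain on average. Closeness on this scale was common, since 94% of the genes compared were closer to *Nfe2l2* than 1. Among the nearest to *Slc7a11* were *Gm40309* (0.321), *Plekha3* (0.35), *Maf* (0.359) and *Trib1* (0.373), with 41.8% of genes closer than 1. Among pairs of members, *Keap1* and *Gsr* were the most alike (0.213), followed by *Keap1* and *Prdx1* (0.295).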

How the data were processed

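RNA of sorted monocytes/macrophages was sequenced in 9 libraries, grouped by the tissue and surgery of their labels. The authors made cDNA with SMART-Seq HT, sequenced Nextera XT libraries as paired-end reads, used HISAT2 with the GRCm38 genome for mapping and HTSeq for counting. The deposited values are raw counts per Ensembl gene, without normalization. Software versions, the annotation release and the strand setting are not given in the sources used here, so overlapping genes on either strand are named as uncertain. Symbols, exon lengths and overlaps came from GENCODE M21 (53706 of the 53801 identifiers matched), and promoter windows from RefSeq. Shared sequence of at least 75 bases and 95% identity was found with BLAST 2.17.0. The limit of 3 counts covers counting error only, since PCR copies were not marked by molecular identifiers. The SD and SE values include the spread between libraries.

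The test was the quasi-likelihood test of edgeR (version 4.0.16, R 4.3.3), fitted to the 2 groups compared after TMM scaling and the default filter. A DEG had a Benjamini-Hochberg adjusted p, taken over every gene tested, below 0.05 and a log2 fold change above 1 in size. The study used DESeq2, which is an alternative here (version 1.42.0). The SE is the size of the log2 fold change over the square root of F. Printed CPM values use TMM factors over the 9 libraries. Replicates are separate mice in blood and separate pools in the brain, and their counts differed beyond sampling noise, with a chi-square of 23.9 to 135.9 per degree of freedom. The values of sham blood 1 stood farthest apart within its group (103.7 and 135.9 against 45.3). In simulated counts with 200 changed genes, edgeR recovered 154 of them in the comparison of brain with stroke blood (13189 genes), with 7 false calls. Of 200 it recovered 162 against sham blood (13020 genes), with 16 false calls, and 166 between the blood groups (12664 genes), with 10. In the data 21.0% of genes were DEGs between brain and stroke blood. Recovery was not tested at that share, nor separately by the size of the fold change. Recovery at log2 fold changes near the threshold of 1 was therefore not tested.

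The members, the wider pathway list, the marker lists and the promoter motif were chosen with earlier results of these data known. Named were all members, the largest rise and largest fall among the DEGs of brain versus stroke blood in each role of the wider list, any of its genes called between the blood groups, and the 5 genes nearest to *Nfe2l2* and to *Slc7a11*. A result that this rule names is not reported here. Alternatives were DESeq2, RLE, upper-quartile and library size scaling, no filter or a mean of 50 counts, a joint fit of all 9 libraries, a block for the replicate number, other thresholds, and each library left out in turn. Python 3.11.15 was used for tables and figures.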

Additional observations from a re-analysis of the deposited data

How the results depend on the processing

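Of the 10 members, 4 were called between brain and stroke blood with DESeq2, RLE, upper-quartile and library size scaling, no filter and a mean of 50 counts, and 3 with all 9 libraries in 1 fit, where *Slc7a11* was lost. Leaving out 1 library gave 3 to 4. The numbers against sham blood moved more, from 0 to 3 when 1 library was left out, 4 with no fold change threshold and 0 at an adjusted p below 0.01 (6 members at an unadjusted p below 0.05 with edgeR, as 34.3% of all genes). *Slc7a11* was called there with DESeq2 (1.54), library size scaling (1.67), no filter (1.53) and all 9 libraries in 1 fit (1.55). Against stroke blood, library size scaling moved the median log2 fold change of all genes from 0.06 to 0.22 and upper-quartile scaling moved it to -0.09, and against sham blood library size scaling moved it from 0.01 to 0.13. In the brain comparisons no member changed sign in any alternative run.

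Between the blood groups no member was called under any alternative. The number of genes called there was 1 with edgeR, 133 with DESeq2 and 160 with no filter. Signs turned for *Nfe2l2* with upper-quartile scaling (0.00072) and for *Keap1* with library size scaling (-0.023) and no filter (-0.010). They also turned for *Prdx1* with DESeq2 (-0.00076), library size scaling (-0.031) and no filter (-0.021). Without 1 library, *Nfe2l2* lay between -0.19 and 0.039, *Keap1* between -0.14 and 0.10, *Slc7a11* between -0.15 and 0.94, *Prdx1* between -0.10 and 0.080 and *Nqo1* between -0.96 and 0.72. The causes were not tested.

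The labels and the text of the study do not say whether same-numbered libraries of stroke blood and brain share animals. Deviations of same-numbered libraries correlated at -0.0715 to 0.0640. With 3 libraries per group and pools of 5 mice in the brain, these values cannot decide it. With the replicate block, 4, 2 and 0 members were called in the 3 comparisons, as without it. At this depth *Nqo1*, with at most 31 counts, and *Me1* are limited by counting error, and 3 libraries a group allow no exact p below 0.1.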
